A study of Mus musculus with 62 samples.

Results

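Hif1a and oxygen-response genes are a list of 10 genes: Hif1a, Epas1, Egln1, Egln3, Bnip3, Vegfa, Slc2a1, Ankrd37, Adm and P4ha1. Their rows were taken by symbol from the count matrix, 10 of 53801 gene identifiers, with no cut on a measured value. The list was, however, chosen with earlier results of these data known. Counts of members called, set beside the shares over all genes, are therefore a description. All 10 passed the filter on low counts and were among the 19865 genes tested. They were described in 16 groups of 3 to 5 RNA-seq libraries, 62 in all, made from CD11b+ mouse brain cells (microglia, by the series title).

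The genotypes were WT (wild type), NLRP3 (Nlrp3 deleted), APPPS1 (carrying the APP and PS1 transgenes of a mouse model of Alzheimer's disease) and APPPS1_NLRP3 (transgenes and Nlrp3 deletion together). Each was sampled at 4, 6 and 12 months (4m, 6m, 12m). A second set of libraries at 12 months carries Mxo4 in its titles, a tag left unexplained in the labels, and forms groups of its own. The promoter that drives the transgenes is not in the labels, nor is whether each library came from a separate animal, so p-values reflect the spread among these libraries only, and that spread may be technical. Sex was not labelled, but the RNA of Xist and of Y-linked genes marked 42 libraries as female and 19 as male, with 1 too shallow to tell. All 4-month libraries were female, WT_12m and APPPS1_12m were all female, and NLRP3_12m and APPPS1_NLRP3_12m were all male. All WT_6m libraries were female, as were the 3 of APPPS1_6m that could be read. NLRP3_6m held 3 female and 1 male, and APPPS1_NLRP3_6m 2 female and 3 male. With the tag, females and males were 2 and 1 in WT, 1 and 2 in NLRP3, 1 and 3 in APPPS1, and 2 and 1 in APPPS1_NLRP3.

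Cells sense oxygen through the hypoxia-inducible factors (HIF). When oxygen is present, prolyl hydroxylases of the EGLN family mark the HIF alpha subunits, the VHL ubiquitin ligase binds the mark, and the subunits are degraded. When oxygen is short the alpha subunits stay, pair with ARNT and activate genes for glycolysis, vessel growth, mitophagy and matrix synthesis. HIF1A protein is set largely by this turnover, so the RNA level of Hif1a is not a measure of HIF activity. In macrophages and microglia, inflammatory signals are also known to raise Hif1a RNA.

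HIF binds DNA at a short core, ACGTG or GCGTG, so the 250 bases before the annotated transcript start were read from RefSeq (GRCm38.p6) for the members. An entry was found for 9 of 10, and Epas1 had none. Hif1a, Egln3 and Bnip3 are shown because their RNA differed most often between groups, and P4ha1 because its RNA did so in no comparison of the main fit. All 4 are written 5′ to 3′ on the gene's strand, and capitals mark a core on either strand.
Hif1a, chr12:73907617-73907866, + strand: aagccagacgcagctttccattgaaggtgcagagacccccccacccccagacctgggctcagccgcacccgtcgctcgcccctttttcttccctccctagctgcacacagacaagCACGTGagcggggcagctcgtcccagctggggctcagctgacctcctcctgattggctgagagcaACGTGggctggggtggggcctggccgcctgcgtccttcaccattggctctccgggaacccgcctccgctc
Egln3, chr12:54203875-54204124, − strand: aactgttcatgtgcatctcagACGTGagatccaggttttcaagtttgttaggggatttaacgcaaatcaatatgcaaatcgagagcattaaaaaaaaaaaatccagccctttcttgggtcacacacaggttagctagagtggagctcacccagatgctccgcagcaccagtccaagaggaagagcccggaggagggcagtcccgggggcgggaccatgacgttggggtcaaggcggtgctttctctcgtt
Bnip3, chr7:138909507-138909756, − strand: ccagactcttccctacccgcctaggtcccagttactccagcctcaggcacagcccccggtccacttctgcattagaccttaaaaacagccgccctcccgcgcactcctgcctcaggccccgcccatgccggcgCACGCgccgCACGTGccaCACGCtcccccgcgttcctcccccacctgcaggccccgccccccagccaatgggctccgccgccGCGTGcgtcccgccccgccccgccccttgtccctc
P4ha1, chr10:59323046-59323295, + strand: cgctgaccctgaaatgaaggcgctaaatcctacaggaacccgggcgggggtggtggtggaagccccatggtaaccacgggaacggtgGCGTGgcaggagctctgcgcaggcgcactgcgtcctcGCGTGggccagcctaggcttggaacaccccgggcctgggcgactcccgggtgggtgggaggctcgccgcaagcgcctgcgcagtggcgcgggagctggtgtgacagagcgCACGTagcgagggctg
Hif1a held 3 matches, Egln3 1, Bnip3 5 and P4ha1 3, where CACGTG counts once on each strand and neighbouring matches can overlap. Either core was present in 9 of 9 members with an entry and ACGTG in 8 of 9, where any window of a member was enough. For Vegfa the window before the annotated gene (chr17:46032378-46032627) held 0 matches. Vegfa was counted through a second window inside the gene (chr17:46025164-46025413), which held 2 matches. Over all 32851 RefSeq promoters of this length, counted window by window, 38.6% held either core and 16.6% held ACGTG. GC content was 66.4% for Hif1a, 50.8% for Egln3, 72.4% for Bnip3 and 69.6% for P4ha1. These matches describe letters in a window and are not binding sites. The Hif1a window lies inside the annotated gene span, downstream of an earlier transcript start, and overlaps no annotated exon. The last 13 bases of the Bnip3 window fall within an annotated first exon.

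The median library held 18392142 counts and the deepest 27604393. APPPS1_6m replicate 21, with 659 counts, was kept in the fit but left out of all levels. NLRP3_12m replicate 45 (1394435 counts) and APPPS1_12m replicate 41 (6187249 counts) were also shallow, and the next lowest total was 11484943. Nlrp3 lay between 60.4 and 271 CPM (counts scaled by library size and TMM factors) in the 30 usable libraries with intact Nlrp3 and between 0 and 2.27 CPM in the 31 without it. Of the microglial markers, P2ry12 lay between 3318 and 8184 CPM and Tmem119 between 1046 and 2807 CPM over the 61 usable libraries. Marker sums of other cell types reached 8779 CPM for choroid plexus and ependyma (median 1502), 2772 CPM for neutrophils (median 141), 1262 CPM for border-associated macrophages (median 508), 1042 CPM for astrocytes (median 256) and 1012 CPM for oligodendrocytes (median 246). Those of neurons, monocytes, erythroid cells and mural cells reached 546, 381, 361 and 297 CPM, and those of B cells and of T and NK cells 32.3 and 10.73 CPM. The neutrophil and monocyte maxima lay in APPPS1_12m, where the group medians were 82.87 and 57.98 CPM. APPPS1_12m_Mxo4 replicate 56 lay outside the range of the other 3 libraries of its group in all 10 members. It lay within the WT_12m_Mxo4 range in 8 of them. The share of all genes that did so was not computed. Several members also ran together over the libraries (Pearson's r = 0.944 for Hif1a and Egln3). These counts therefore do not set the members apart from other genes. Tests of the members that use that group are given with and without replicate 56. Per the labels the libraries were made in 2 batches, but which library belongs to which is not stated. The second title number takes 2 values and was a term in the fit, and the labels do not say what it marks.

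Levels of different genes were compared per kilobase of exon. The highest medians over the 61 usable libraries were 108.5 CPM per kb for P4ha1, 54.14 for Slc2a1, 46.08 for Hif1a and 34.9 for Bnip3. Egln1 followed at 12.25 CPM per kb. Epas1 (3.236), Vegfa (2.996), Ankrd37 (2.925), Adm (1.292) and Egln3 (1.075) were low in the median library. The order changes with genotype for Egln3, whose CPM spanned 0.1711 to 3.316 in libraries without the transgenes and 2.05 to 103.2 in libraries with them.

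The transgene comparison asks how CD11b+ cells of APPPS1 mice differ from those of mice of the same age and tag without the transgenes. It was made with Nlrp3 intact (APPPS1 minus WT) and without it (APPPS1_NLRP3 minus NLRP3). The pair at 6 months without Nlrp3 and both tagged pairs were not matched for sex. Below, ± after CPM is the SD between libraries and ± after a log2 difference is its standard error. Calls rest on the edgeR quasi-likelihood test with p-values adjusted (Benjamini-Hochberg) over all 19865 genes, at a threshold of 0.05. At 4 months 0 of 10 members were called in either background by edgeR or DESeq2. Of all genes, edgeR called 0.0252% with Nlrp3 and 0.0101% without. In each background 1 of 10 members had an unadjusted p under 0.05, as did 505 of the 19865 genes with Nlrp3 and 886 without. At 6 months 3 of 10 rose with Nlrp3 intact, where 3.03% of all genes were called and 2.06% were called higher. Without Nlrp3, 4 rose and 1 fell at that age, where 8.03% of all genes were called, 6.16% higher and 1.87% lower. At 12 months 5 of 10 rose with Nlrp3 (18.1% of all genes called, 11.1% higher) and 4 of 10 without (8.69% called, 5.53% higher). With the tag, 4 of 10 rose with Nlrp3 (5.08% called, 3.44% higher) and 6 of 10 without (5.14% called, 3.5% higher). Leaving out replicate 56 raised the tagged count with Nlrp3 to 6 higher and 1 lower, where 6.62% of all genes were called higher and 6.02% lower. Hif1a, Egln3 and Bnip3 were called higher in each of the 6 comparisons at 6 months or later.

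The median log2 difference of the 10 members at 12 months was 0.519 with Nlrp3, where that of all genes was −0.075, and 0.841 without Nlrp3, where that of all genes was −0.0489. At 6 months the members' medians were 0.181 and 0.403, against −0.0258 and −0.0355 over all genes. At 4 months they were −0.104 and −0.0391. The members spread widely around these medians, as Egln3 had the largest difference and Epas1 the lowest in each comparison from 6 months on.

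**Figure D1:**
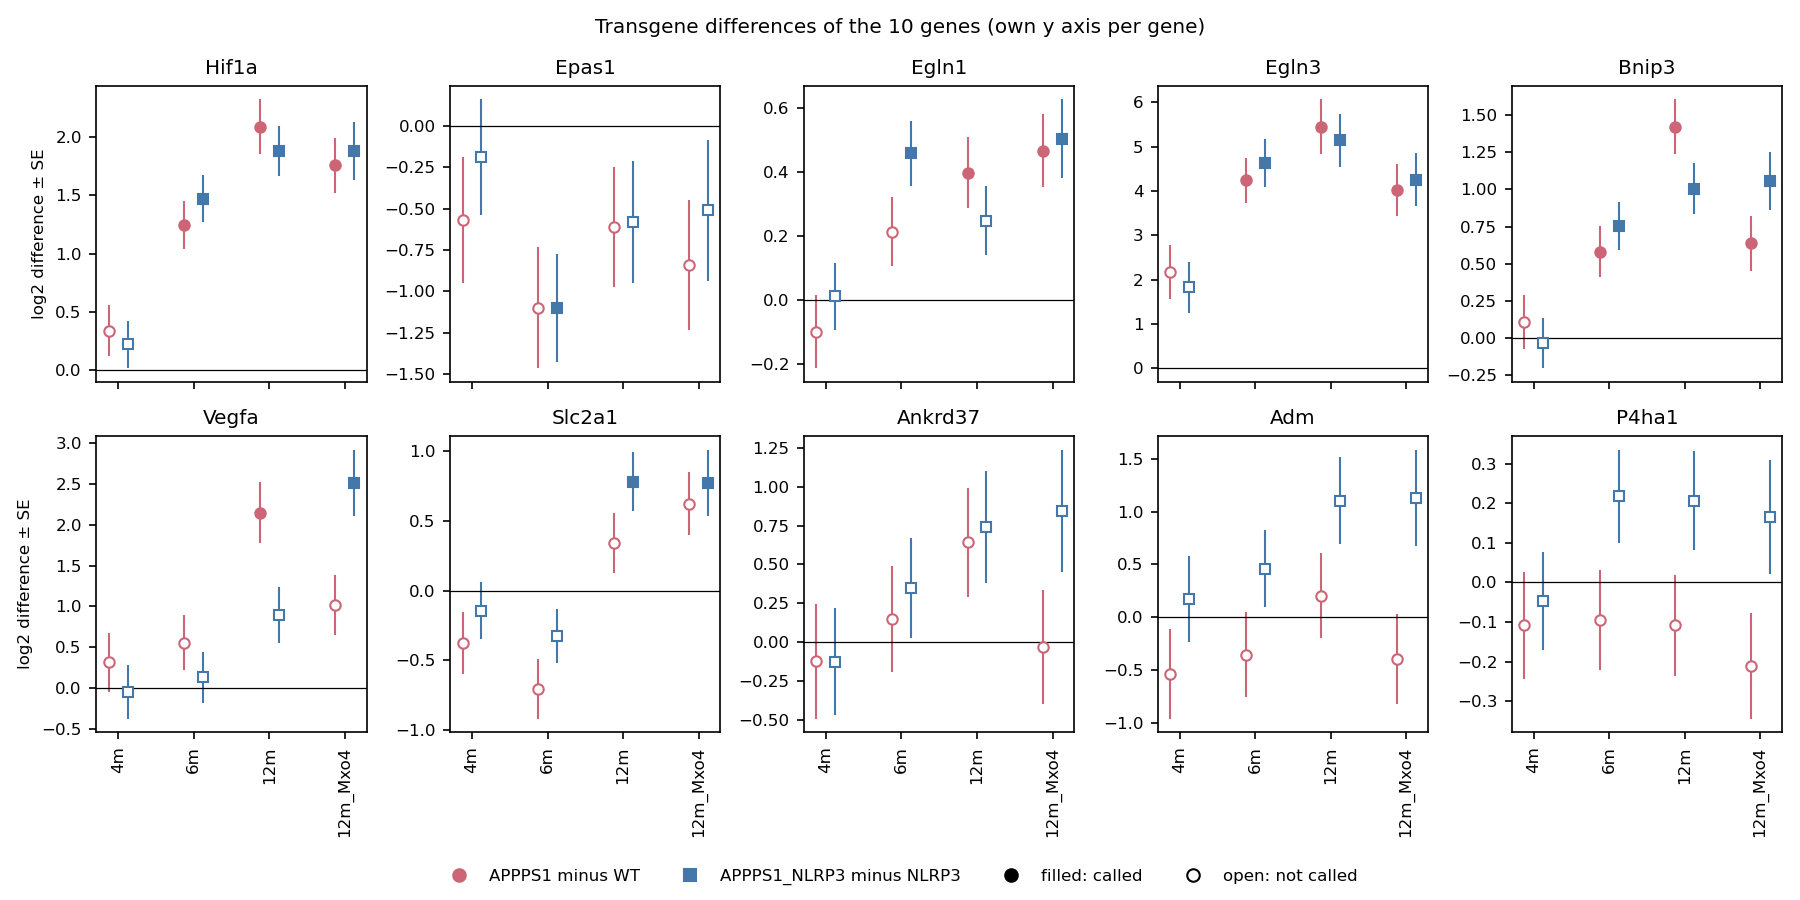
Transgene log2 difference (y axis, ± standard error, own scale per gene) of each of the 10 genes at 4m, 6m, 12m and 12m with the Mxo4 tag (x axis), for APPPS1 minus WT (circles) and APPPS1_NLRP3 minus NLRP3 (squares). Filled symbols passed the adjusted p threshold: Hif1a, Egln3 and Bnip3 are filled from 6 months on in both backgrounds, and P4ha1 is open throughout.

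Hif1a encodes the oxygen-labile alpha subunit of HIF-1 (ENSMUSG00000021109, chr12:73901375-73947530, + strand). Its exons overlap those of the antisense gene Gm15283 and of Gm49321, a protein-coding gene on the same strand. Whether counting used strand is not given in the sources used here, so reads shared with either gene cannot be told apart. In WT it lay at 209.3, 246, 217 and 251 CPM at 4 months, at 200.1, 209.3, 223.2, 197.8 and 203.1 CPM at 6 months, and at 242.9, 236 and 275.1 CPM at 12 months. In NLRP3 it lay at 240.4, 248.7, 246.6 and 226.4 CPM at 4 months, at 247.5, 180.5, 201.2 and 211.6 CPM at 6 months, and at 248.7, 217.9, 180.5 and 216.8 CPM at 12 months. Libraries without the transgenes thus stayed between 180.5 and 280.6 CPM over all ages and both tags.

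APPPS1 libraries gave 235.7, 294.4 and 338.3 CPM of Hif1a at 4 months, 414.6, 508.4 and 585.5 CPM at 6 months, and 1072, 1240, 822, 862.3 and 1286 CPM at 12 months. APPPS1_NLRP3 libraries gave 307.2, 295.3, 274.6 and 244.2 CPM at 4 months, 626.2, 493, 547, 582.7 and 669.1 CPM at 6 months, and 912.5, 861, 797.6 and 656 CPM at 12 months. The 4-month ranges overlapped those of the matched controls, and from 6 months on every transgenic library of these groups lay above every control library. Ordered by mean, the 6 transgenic groups of 6 months and later came first, and the lowest of them, APPPS1_6m at 503 ± 85.6 CPM (n = 3), did not overlap APPPS1_4m at 289 ± 51.5 CPM (n = 3). Below that gap each group overlapped its neighbour in the order.

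With Nlrp3 intact the difference in Hif1a was 0.34 ± 0.22 at 4 months (adjusted p = 1), 1.24 ± 0.21 at 6 months (adjusted p = 8.04e-05) and 2.09 ± 0.23 at 12 months (adjusted p = 2.84e-08), a 4.25-fold higher level at 12 months. Without Nlrp3 it was 0.22 ± 0.21 at 4 months, 1.47 ± 0.20 at 6 months (adjusted p = 1.39e-06) and 1.88 ± 0.21 at 12 months (adjusted p = 5.1e-08). The transgene difference at 12 months exceeded that at 4 months by 1.75 ± 0.31 with Nlrp3 (adjusted p = 0.00188) and by 1.66 ± 0.29 without it (adjusted p = 0.00511). From 6 to 12 months the gain with Nlrp3 was 0.85, which did not pass (adjusted p = 0.133) but was called when 4 shallow or outlying libraries were left out (0.80, adjusted p = 0.0246). These calls of the 6- and 12-month differences held in every alternative tried.

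With the tag, Hif1a lay at 267.6, 184.3 and 243.6 CPM in WT and at 271.7, 257 and 280.6 CPM in NLRP3. It lay at 232.9, 928.6, 1071 and 840.1 CPM in APPPS1 and at 950.7, 959.9 and 1124 CPM in APPPS1_NLRP3. The single low APPPS1 value is replicate 56, inside the WT range, while the other 3 lay above all WT libraries. The difference was 1.76 ± 0.23 with all 4 libraries (adjusted p = 2.97e-06) and 2.09 ± 0.15 without replicate 56 (adjusted p = 2.01e-15). Without Nlrp3 it was 1.88 ± 0.25 (adjusted p = 1.27e-06).

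**Figure D2:**
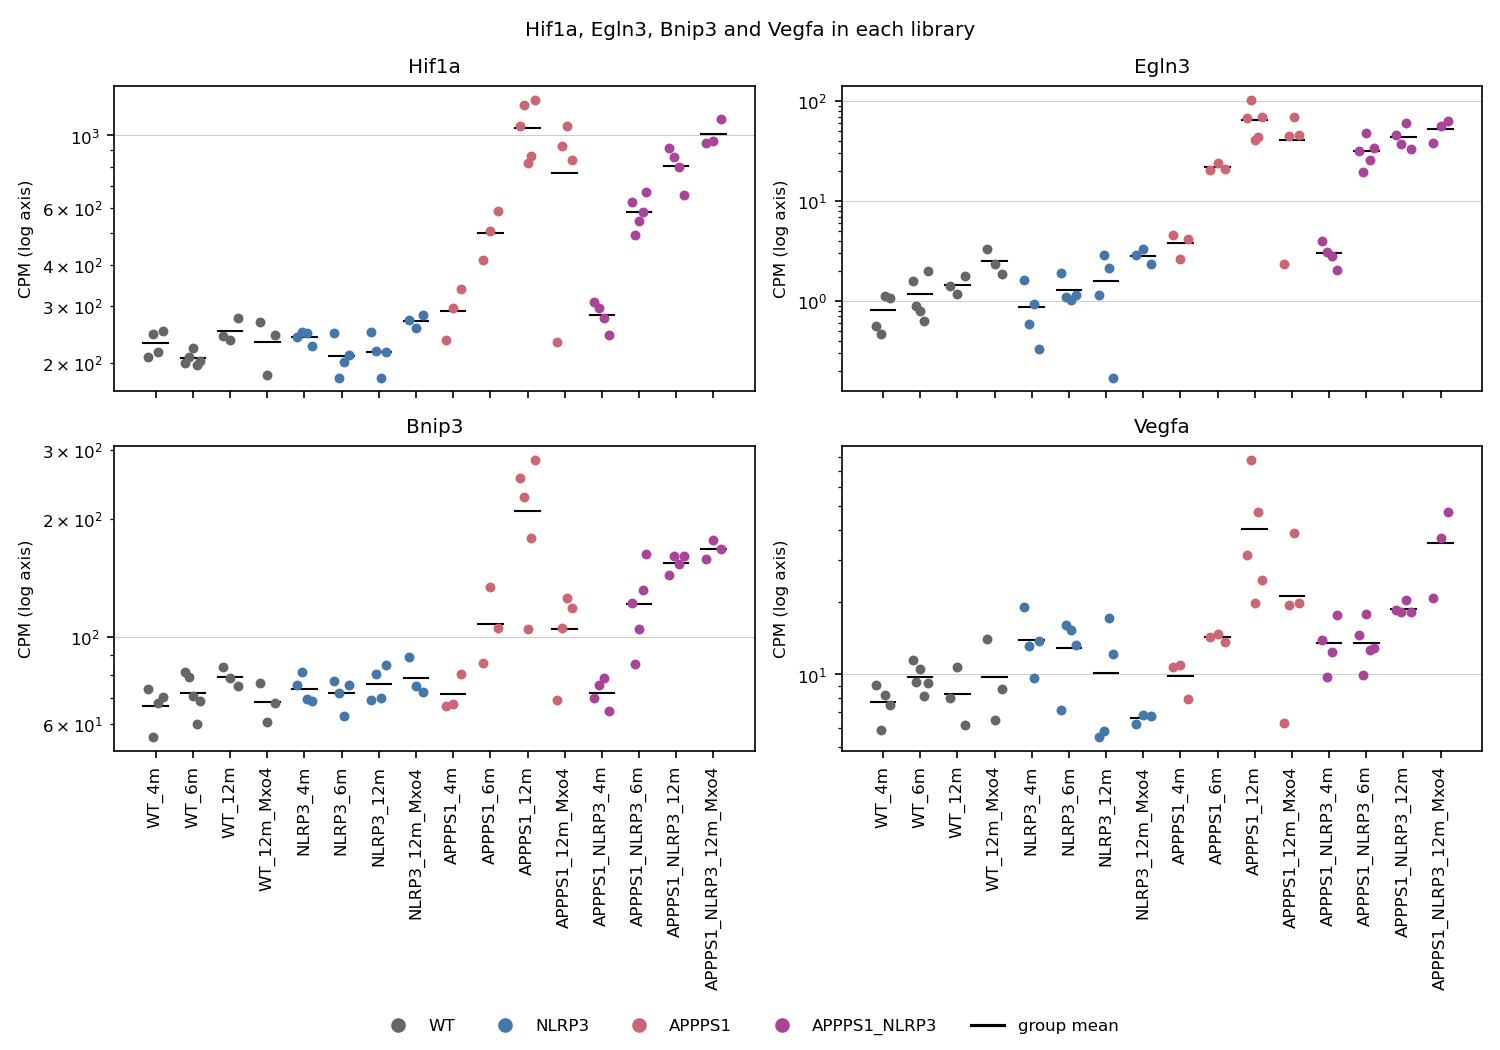
CPM on a log axis of Hif1a, Egln3, Bnip3 and Vegfa (y axes) in each of the 61 usable libraries (points), by group (x axis), with group means as bars. Hif1a and Egln3 step up from 4 to 6 months in both transgenic genotypes, and 1 APPPS1_12m_Mxo4 library, replicate 56, sits at the level of the controls (232.9 CPM of Hif1a and 2.367 CPM of Egln3).

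Epas1 encodes HIF-2 alpha, which endothelial cells express strongly (ENSMUSG00000024140, chr17:86753700-86833410, + strand). Its transgene difference was below 0 in all 8 comparisons, though only 1 was called. At 6 months it lay at 76.83, 37.75, 78.34, 65.93 and 47.07 CPM in WT and at 37.51, 24.1 and 22.8 CPM in APPPS1, ranges that barely miss each other. In NLRP3_6m it lay at 102.8, 37.91, 56.59 and 43.89 CPM and in APPPS1_NLRP3_6m at 17.15, 37.81, 12.3, 18.09 and 47.64 CPM, of which 4 lay below every NLRP3_6m library. Epas1 fell by 1.10 ± 0.33 at 6 months without Nlrp3 (adjusted p = 0.0245), and this call was lost without any 1 of replicates 27, 28, 30 and 31 (adjusted p up to 0.169). With Nlrp3 intact the 6-month difference was −1.10 ± 0.37 (adjusted p = 0.089), called lower without WT_6m replicate 19 (adjusted p = 0.045) and with DESeq2 (adjusted p = 0.0476).

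At 12 months the Epas1 difference was −0.61 ± 0.36 with Nlrp3 (adjusted p = 0.243) and −0.58 ± 0.37 without (adjusted p = 0.384). In the tagged set with Nlrp3 it was −0.84 ± 0.39 (adjusted p = 0.245), and −1.30 ± 0.42 without replicate 56 (adjusted p = 0.0291). In the tagged set without Nlrp3 it was −0.51 ± 0.43 (adjusted p = 0.612). Levels were highest at 6 months in each genotype, at 61.2 ± 18.1 CPM in WT (n = 5) and 60.3 ± 29.4 CPM in NLRP3 (n = 4), against 28.7 ± 5.75 and 21.6 ± 8.86 CPM at 4 months (n = 4 each).

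Endothelial RNA moved with Epas1. The 10 endothelial markers (among them Cldn5, Flt1 and Cdh5, none at 0 in any group) summed to between 91.5 and 968 CPM over the libraries. Their sum was 688 ± 232 CPM in WT_6m and 542 ± 197 CPM in NLRP3_6m, against 342 ± 115 in APPPS1_6m and 289 ± 157 in APPPS1_NLRP3_6m. At 6 months the median marker difference was −1.05 with Nlrp3, with 1 of 10 called lower, and −0.948 without Nlrp3, with 2 of 10 called lower. Mean Epas1 per 100 CPM of endothelial markers lay between 5.27 and 10.8 CPM over the 16 groups, a narrower span than that of Epas1 itself (7.17 to 61.2 CPM). The choroid plexus and ependyma sum was 3151 ± 1147 CPM in WT_6m against 1663 ± 846 in APPPS1_6m, and 5944 ± 2283 CPM in NLRP3_6m against 3984 ± 3924 in APPPS1_NLRP3_6m. In bulk RNA, fewer endothelial cells and less RNA per cell cannot be told apart, and the part of either marker list in the Epas1 difference was not tested.

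**Figure D3:**
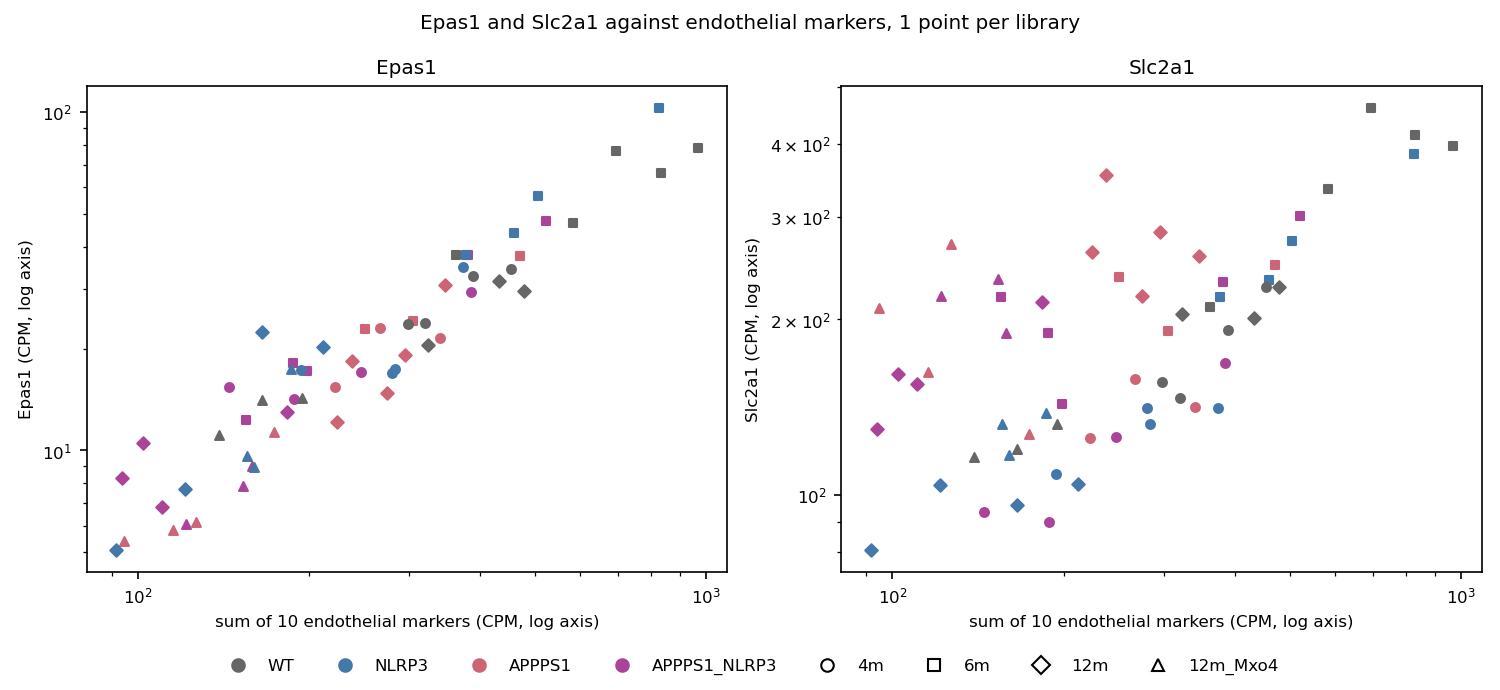
CPM of Epas1 (left y axis) and Slc2a1 (right y axis) against the summed CPM of 10 endothelial markers (x axes), all on log axes, with 1 point per library, colour for genotype and shape for age and tag. Epas1 follows the marker sum over its range of 91.5 to 968 CPM in all genotypes, whereas for Slc2a1 many transgenic libraries of 6 and 12 months sit above the non-transgenic libraries with the same sum.

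Egln1 encodes PHD2, the main oxygen sensor that hydroxylates HIF alpha (ENSMUSG00000031987, chr8:124908587-124949324, − strand). Its levels moved within a narrow range, from 34.18 to 66.57 CPM over all libraries. It lay at 40.15, 38.79 and 48.3 CPM in WT_12m and at 45.86, 58.73, 55.31, 66.57 and 57.49 CPM in APPPS1_12m, where 4 of 5 libraries lay above all WT libraries. In NLRP3_6m it lay at 39.07, 34.18, 41.19 and 36.23 CPM and in APPPS1_NLRP3_6m at 56.35, 45.9, 54.64, 46.87 and 52.35 CPM, with no overlap. Egln1 rose by 0.46 ± 0.10 at 6 months without Nlrp3 (adjusted p = 0.00134) and by 0.40 ± 0.11 at 12 months with it (adjusted p = 0.0074, and 0.0999 without WT_12m replicate 40).

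Egln1 also rose in both tagged sets, by 0.47 ± 0.11 with Nlrp3 (adjusted p = 0.00788, and 0.0777 without WT_12m_Mxo4 replicate 60) and by 0.50 ± 0.12 without (adjusted p = 0.00589). Leaving out replicate 56, at 43.28 CPM against 58.06, 58.26 and 58.29 CPM in the rest of its group, gave 0.55 ± 0.12 (adjusted p = 7.08e-04). The differences that were not called were 0.21 ± 0.11 at 6 months with Nlrp3 (adjusted p = 0.295) and 0.25 ± 0.11 at 12 months without (adjusted p = 0.155). NLRP3_12m itself lay at 51.7 ± 6.91 CPM (n = 4), the highest mean among the groups without the transgenes.

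Egln3 encodes PHD3, an oxygen sensor that is itself a HIF target in many cells (ENSMUSG00000035105, chr12:54178981-54203860, − strand). It was near the bottom of the range in libraries without the transgenes and changed more than any other member. WT gave 0.56, 0.4637, 1.13 and 1.07 CPM at 4 months, 1.6, 0.8976, 0.79, 0.637 and 1.994 CPM at 6 months, and 1.41, 1.171 and 1.783 CPM at 12 months. APPPS1 gave 4.532, 2.622 and 4.159 CPM at 4 months, 20.72, 24.24 and 21.18 CPM at 6 months, and 68.7, 103.2, 40.71, 44.31 and 69.64 CPM at 12 months. Each APPPS1 group lay wholly above the WT group of its age, already at 4 months.

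The same order held without Nlrp3. NLRP3 gave 1.631, 0.59, 0.94 and 0.3317 CPM at 4 months, 1.922, 1.11, 1.02 and 1.16 CPM at 6 months, and 1.16, 2.905, 2.12 and 0.1711 CPM at 12 months. APPPS1_NLRP3 gave 4.023, 3.12, 2.84 and 2.05 CPM at 4 months, 31.42, 19.72, 48.07, 25.93 and 34.39 CPM at 6 months, and 46.19, 37.25, 60.83 and 32.93 CPM at 12 months. All transgenic libraries again lay above all controls of their age. Over the 16 groups ordered by mean, the only neighbours that did not overlap were APPPS1_6m (22.05 ± 1.91 CPM, n = 3) and APPPS1_4m (3.77 ± 1.01 CPM, n = 3).

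At 4 months the Egln3 difference was 2.17 ± 0.61 with Nlrp3 (adjusted p = 1) and 1.83 ± 0.58 without (adjusted p = 0.758), and neither was called. With 4 shallow or outlying libraries left out, the first was called (2.18 ± 0.46, adjusted p = 0.032). Egln3 rose by 4.24 ± 0.51 at 6 months (adjusted p = 3.34e-07) and by 5.45 ± 0.62 at 12 months (adjusted p = 3.25e-08) with Nlrp3, the latter a 43.7-fold difference. Without Nlrp3 it rose by 4.63 ± 0.53 (adjusted p = 6.44e-08) and 5.15 ± 0.59 (adjusted p = 7.49e-08). The gain from 4 to 12 months was 3.28 ± 0.85 with Nlrp3 (adjusted p = 0.0158, and 0.0504 without APPPS1_4m replicate 3). Without Nlrp3 it was 3.31 ± 0.83 (adjusted p = 0.0342), a call lost without any 1 of 9 of the 16 libraries (adjusted p up to 0.122).

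Tagged WT libraries gave 3.316, 2.338 and 1.849 CPM of Egln3 and tagged APPPS1 libraries 2.367, 44.65, 70.33 and 45.68 CPM, where the low value is replicate 56. The difference was 4.02 ± 0.58 (adjusted p = 9.34e-06) and 4.47 ± 0.45 without that library (adjusted p = 1.48e-10). In NLRP3 it lay at 2.861, 3.282 and 2.35 CPM and in APPPS1_NLRP3 at 38.35, 56.38 and 64.01 CPM, a difference of 4.26 ± 0.59 (adjusted p = 4.81e-06).

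Among the targets, Bnip3 encodes a mitophagy receptor of the outer mitochondrial membrane (ENSMUSG00000078566, chr7:138890836-138909519, − strand, overlapped by the antisense gene Gm45507). Libraries without the transgenes stayed between 55.51 and 88.74 CPM. At 4 months APPPS1 lay at 66.7, 67.32 and 80.72 CPM and APPPS1_NLRP3 at 69.78, 75.41, 78.66 and 64.74 CPM, inside that range. At 6 months APPPS1 lay at 85.74, 133.9 and 105.3 CPM, all above WT at 81.43, 79.04, 70.61, 60.01 and 68.64 CPM. APPPS1_NLRP3_6m lay at 122.4, 85.58, 104.9, 131.7 and 163 CPM, all above NLRP3_6m at 77.13, 71.81, 62.95 and 75.33 CPM.

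At 12 months Bnip3 lay at 255.2, 227.4, 105.1, 179 and 283.8 CPM in APPPS1 and at 84.06, 78.7 and 74.97 CPM in WT. It lay at 144.3, 160.7, 153.3 and 161.2 CPM in APPPS1_NLRP3 and at 69.29, 80.62, 69.83 and 84.74 CPM in NLRP3. Groups did not overlap in either background, and the APPPS1 libraries spread more widely than the APPPS1_NLRP3 libraries. Bnip3 rose by 1.42 ± 0.18 with Nlrp3 (adjusted p = 1.18e-07) and by 1.01 ± 0.17 without (adjusted p = 5.82e-05) at 12 months. At 6 months it rose by 0.75 ± 0.16 without Nlrp3 (adjusted p = 0.00107) and by 0.58 ± 0.17 with it (adjusted p = 0.046), and the latter call was lost without any 1 of the 9 libraries (adjusted p 0.0534 to 0.303). The 9 include replicate 21, with 659 counts. The leave-outs used a fixed dispersion trend, unlike the main fit, so the part of a single library in this loss cannot be told apart.

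Between 4 and 12 months the transgene difference in Bnip3 grew by 1.31 ± 0.26 with Nlrp3 (adjusted p = 0.00238) and by 1.04 ± 0.24 without (adjusted p = 0.0216). The latter was lost without replicate 14 or 47 (adjusted p up to 0.0674). Tagged libraries held Bnip3 at 69.12, 105.8, 125.7 and 118.5 CPM in APPPS1 against 76.27, 60.89 and 67.96 CPM in WT. That rise of 0.64 ± 0.19 (adjusted p = 0.0294) was lost without any 1 of 6 of the 7 libraries (adjusted p up to 0.163), and it was 0.83 ± 0.18 without replicate 56 (adjusted p = 7.76e-04). APPPS1_NLRP3 at 158.5, 177.4 and 167.9 CPM lay above NLRP3 at 88.74, 75.01 and 72.57 CPM, a rise of 1.06 ± 0.20 (adjusted p = 2.36e-04).

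Vegfa encodes the vascular endothelial growth factor that drives vessel growth and leakage (ENSMUSG00000023951, chr17:46016993-46032369, − strand). It was called higher in 12-month sets only. At 6 months it lay at 14.38, 14.68 and 13.68 CPM in APPPS1 and at 11.51, 9.275, 10.57, 8.154 and 9.18 CPM in WT, without overlap but with a difference of 0.55 ± 0.34 that was not called (adjusted p = 0.408). At 12 months WT lay at 7.989, 10.76 and 6.175 CPM and APPPS1 at 31.36, 78.08, 19.79, 47.14 and 24.73 CPM. The APPPS1_12m libraries differed widely among themselves, yet the lowest lay above all WT libraries. Vegfa rose by 2.15 ± 0.37 (adjusted p = 2.51e-05).

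Without Nlrp3 the 12-month values were 18.56, 18.12, 20.37 and 18.1 CPM with the transgenes and 5.485, 5.81, 17.1 and 12.15 CPM without them. All 4 transgenic libraries were higher, but the difference of 0.90 ± 0.34 was not called (adjusted p = 0.0978, and 0.0378 without NLRP3_12m replicate 47). Tagged APPPS1 libraries gave 6.279, 19.51, 38.73 and 19.84 CPM against 13.98, 6.47 and 8.708 CPM in WT. That difference of 1.02 ± 0.37 was not called (adjusted p = 0.106), and it was 1.34 ± 0.36 without replicate 56 (adjusted p = 0.00775). APPPS1_NLRP3 gave 20.87, 36.94 and 47.48 CPM against 6.241, 6.776 and 6.704 CPM in NLRP3, a rise of 2.52 ± 0.40 (adjusted p = 2.94e-05).

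The transgene difference in Vegfa grew by 1.83 ± 0.51 from 4 to 12 months with Nlrp3 (adjusted p = 0.0249), which was not called once replicate 2, 3, 6, 36 or 40 was left out (adjusted p up to 0.092). Without Nlrp3 it grew by 0.94 ± 0.48 (adjusted p = 0.383). Ordered by group mean, the 4 transgenic 12-month groups came first, and the lowest of them, APPPS1_NLRP3_12m (18.8 ± 1.08 CPM, n = 4), did not overlap the next, APPPS1_6m (14.3 ± 0.514 CPM, n = 3).

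Slc2a1 encodes the glucose transporter GLUT1, which is abundant in brain endothelium (ENSMUSG00000028645, chr4:119108711-119137983, + strand, overlapped by the antisense gene Gm12868). At 6 months it lay at 460.3, 210.4, 395.7, 413.5 and 334 CPM in WT and at 247.8, 190.8 and 236.2 CPM in APPPS1. The difference of −0.70 ± 0.21 was not called (adjusted p = 0.0578), but was called lower without WT_6m replicate 19, the lowest WT library (adjusted p = 0.0093), and with DESeq2 (adjusted p = 0.0213). At 12 months NLRP3 lay at 104.2, 96.12, 104.4 and 80.62 CPM and APPPS1_NLRP3 at 161.4, 129.9, 214.3 and 155.2 CPM, without overlap. Slc2a1 rose by 0.78 ± 0.21 there (adjusted p = 0.0109, and 0.067 without APPPS1_NLRP3_12m replicate 46).

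In WT_12m Slc2a1 lay at 201, 227.5 and 204.7 CPM and in APPPS1_12m at 282.6, 260.7, 256.7, 353 and 219.1 CPM, an overlapping pair whose difference of 0.34 ± 0.21 was not called (adjusted p = 0.277). In the tagged sets it rose by 0.77 ± 0.24 without Nlrp3 (adjusted p = 0.0447), from 132.6, 138.5 and 117.4 CPM to 189.4, 234.8 and 219.2 CPM. That call was lost without any 1 of the 6 libraries (adjusted p 0.05 to 0.158). The leave-outs used a fixed dispersion trend, unlike the main fit, so the part of a single library in this loss cannot be told apart. With Nlrp3 the tagged difference was 0.63 ± 0.23 (adjusted p = 0.1), and 0.77 ± 0.23 without replicate 56 (adjusted p = 0.0213).

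Mean Slc2a1 per 100 CPM of endothelial markers was 54.5 ± 9.58 CPM in WT_6m and 69.8 ± 21.7 in APPPS1_6m. It was 52.3 ± 4.85 in NLRP3_6m and 86.5 ± 34.9 in APPPS1_NLRP3_6m. The ranges of both 6-month pairs overlapped. At 12 months it was 52.5 ± 9.40 in WT and 103 ± 30.3 in APPPS1, and 70.3 ± 19.7 in NLRP3 and 138 ± 16.8 in APPPS1_NLRP3. With the tag it was 74.7 ± 7.87 in WT and 162 ± 69.2 in APPPS1, replicate 56 included. In tagged NLRP3 and APPPS1_NLRP3 it was 77.5 ± 6.49 and 151 ± 30.4. At 4 months the 4 genotypes lay between 47.8 and 52.4. The ratio describes both quantities at once, and the part of endothelial RNA in the Slc2a1 differences was not tested.

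Ankrd37, a small ankyrin-repeat protein whose gene is a common hypoxia marker (ENSMUSG00000050914, chr8:45996902-46005707, − strand), overlaps Ufsp2 and Lrp2bp on the other strand. It was not called in any of the 8 transgene comparisons. At 12 months it lay at 8.186, 7.766, 10.42 and 7.646 CPM in APPPS1_NLRP3 and at 2.316, 3.757, 4.619 and 16.7 CPM in NLRP3, where 16.7 CPM belongs to the shallow replicate 45. The difference was 0.74 ± 0.36 with that library (adjusted p = 0.219) and 1.30 ± 0.32 without it (adjusted p = 0.00653). With Nlrp3 it was 0.64 ± 0.35 at 12 months (adjusted p = 0.206). With the tag and Nlrp3 it was −0.03 ± 0.37 (adjusted p = 0.993), and 0.12 ± 0.40 without replicate 56 (adjusted p = 0.899).

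Adm, which encodes the vasodilator peptide adrenomedullin (ENSMUSG00000030790, chr7:110627661-110629820, + strand), was scarce at 0.7263 to 6.422 CPM. It too was not called in any transgene comparison of the main fit. Its differences ran from −0.54 at 4 months with Nlrp3 to 1.13 ± 0.46 in the tagged set without Nlrp3 (adjusted p = 0.159), where the ranges overlapped. With the tag and Nlrp3 it was −0.40 ± 0.43 (adjusted p = 0.699), and −0.76 ± 0.46 without replicate 56 (adjusted p = 0.31). At 12 months without Nlrp3 the difference was 1.11 ± 0.41 (adjusted p = 0.0874), and APPPS1_NLRP3 at 3.001, 1.957, 5.162 and 2.102 CPM lay above NLRP3 at 1.524, 1.679, 1.255 and 0.7263 CPM.

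P4ha1 encodes the catalytic subunit of collagen prolyl 4-hydroxylase, a classical HIF target in fibroblasts (ENSMUSG00000019916, chr10:59323296-59373304, + strand). It was the most abundant member per kilobase and the flattest. Group means ran from 387 ± 76.6 CPM in NLRP3_12m (n = 4) to 516 ± 109 CPM in APPPS1_NLRP3_6m (n = 5). It was called in none of the 32 comparisons of the main fit, and its transgene differences ran from −0.21 to 0.22. Those 2 extremes are the tagged set with Nlrp3, where the value was −0.25 without replicate 56, and the 6-month set without Nlrp3. The latter difference was 0.51, and was called, among libraries with second title number 2 alone.

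**Figure D4:**
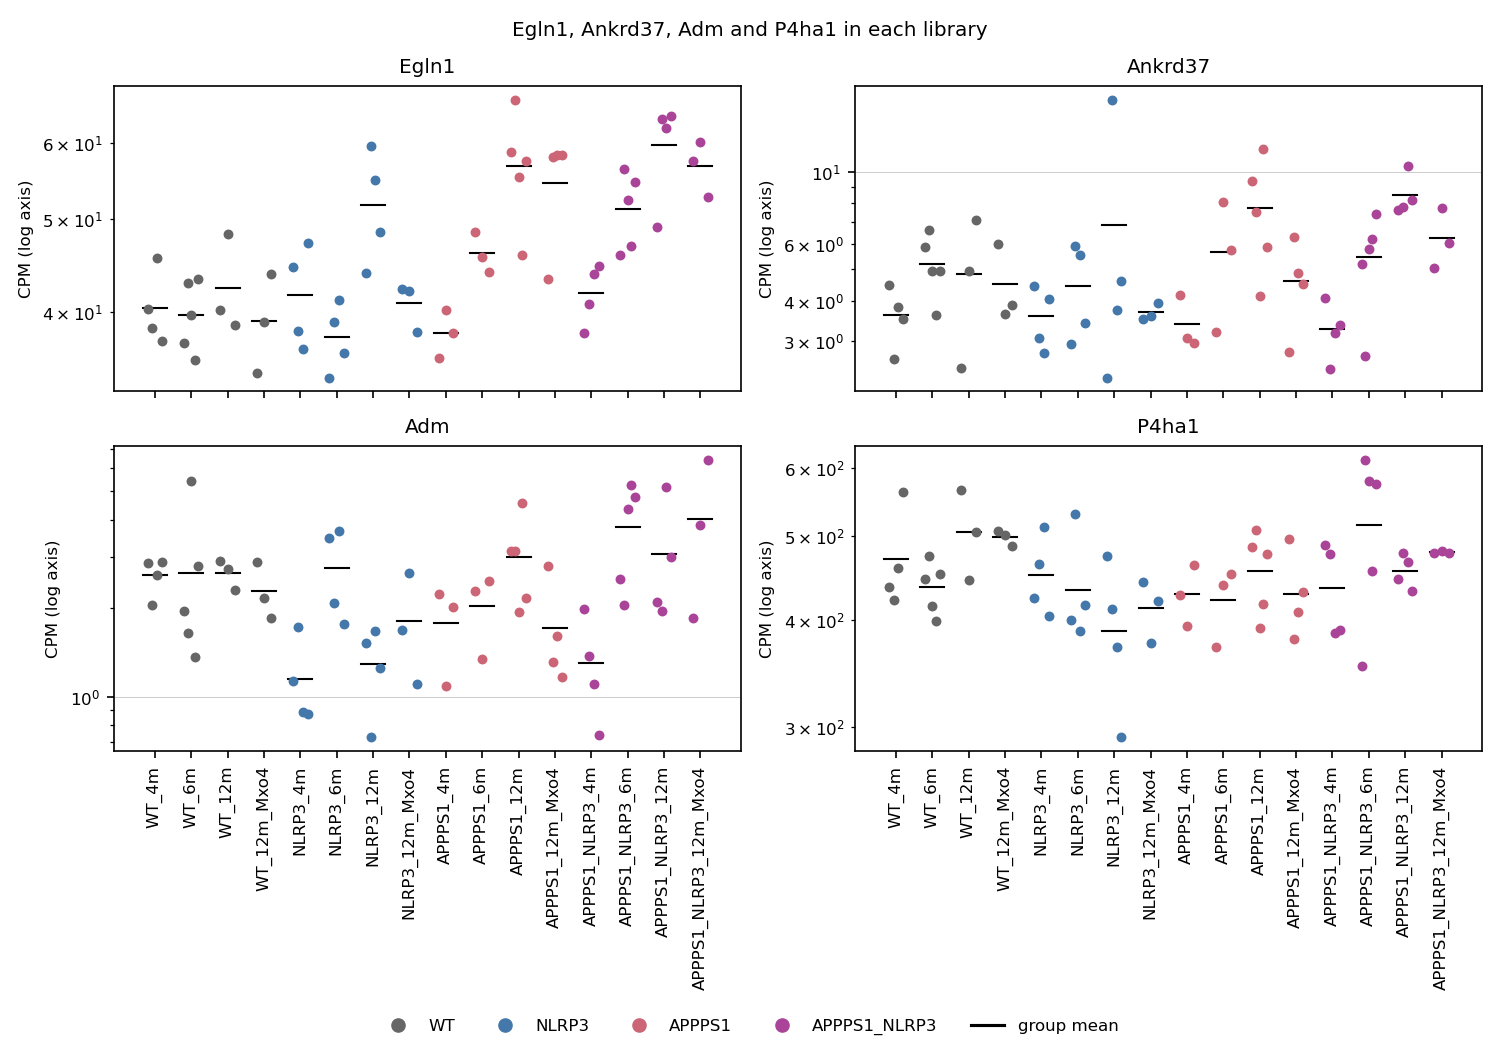
CPM on a log axis of Egln1, Ankrd37, Adm and P4ha1 (y axes) in each usable library (points), by group (x axis), with group means as bars. P4ha1 stays between 291.8 and 614.1 CPM in all 61 libraries, Egln1 between 34.18 and 66.57 CPM, and the high NLRP3_12m point for Ankrd37 is replicate 45 at 16.7 CPM.

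Whether Nlrp3 loss altered the transgene difference was tested as an interaction at each age and in the tagged sets. At 12 months without the tag, libraries with Nlrp3 were all female and those without it all male. Nlrp3 loss and sex cannot be told apart in that test. The 6-month and tagged sets were not matched for sex. None of the 10 members was called in any of the 4 tests, where 0.0%, 0.0151%, 0.0% and 0.0% of all genes were called at 4m, 6m, 12m and with the tag. For Hif1a the interaction was −0.12, 0.23, −0.21 and 0.12, and for Egln3 it was −0.34, 0.39, −0.31 and 0.24, in the same order. Vegfa had the smallest unadjusted p-values, with −1.25 ± 0.50 at 12 months (adjusted p = 0.357) and 1.497 ± 0.54 in the tagged sets (adjusted p = 1), opposite in sign. Adm followed with 1.53 ± 0.62 for the tag (adjusted p = 1). Without replicate 56 the tagged interaction was again called for 0 of 10 members, at −0.24 for Hif1a, −0.27 for Egln3, 1.15 ± 0.50 for Vegfa and 1.93 ± 0.65 for Adm (adjusted p = 0.783), so that for Hif1a and Egln3 the sign turned. At an unadjusted p under 0.05 the tests gave 0, 0, 1 and 2 members in the same order. Of the 19865 genes, 355, 1465, 1961 and 802 had such a p. DESeq2 called 0 members in each, where it called 2, 31, 143 and 0 of all genes.

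Nlrp3 loss without the transgenes (NLRP3 minus WT) called 0 of 10 members at 4 months (0.378% of all genes), 0 at 6 months (0.443%), 1 at 12 months (1.47%, with 1.03% lower) and 0 in the tagged sets (0.0956%). At an unadjusted p under 0.05 the counts were 3, 1, 3 and 1 members, and 1704, 1950, 3042 and 1066 of the 19865 genes. DESeq2 called 0, 0, 1 and 0 members, where it called 174, 222, 637 and 55 of all genes. The called gene was Slc2a1, which fell by 1.16 ± 0.22 at 12 months (adjusted p = 0.00345), from 211 ± 14.3 CPM (n = 3) to 96.3 ± 11.2 CPM (n = 4), with no overlap. The endothelial marker sum was 411 ± 79.5 CPM in WT_12m and 148 ± 52.7 CPM in NLRP3_12m, and all WT_12m libraries were female and all NLRP3_12m libraries male. With sex as a further term, read from the other groups, the Slc2a1 difference was −1.11 (adjusted p = 0.0263). At 4 months, 6 months and in the tagged sets it was −0.46, −0.42 and 0.12, none called. Adm lay lower in all 4 NLRP3_4m libraries (0.8707 to 1.722 CPM) than in all 4 WT_4m libraries (2.053 to 2.883 CPM), a difference of −1.18 ± 0.40 that was not called (adjusted p = 0.267).

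Nlrp3 loss with the transgenes (APPPS1_NLRP3 minus APPPS1) called 0 of 10 members at 4 months (0.206%), 0 at 6 months (0.488%), 2 at 12 months (5.71%, with 3.3% lower) and 0 in the tagged sets (0.287%). At an unadjusted p under 0.05 the counts were 0, 2, 5 and 3 members, and 1022, 1552, 4501 and 1356 of the 19865 genes. DESeq2 called 0, 0, 2 and 0 members. The tagged count stayed at 0 without replicate 56 (0.327% of all genes). Vegfa fell by 1.04 ± 0.32 (adjusted p = 0.0405) and Slc2a1 by 0.72 ± 0.20 (adjusted p = 0.0241) at 12 months, where 3 and 4 of the 4 APPPS1_NLRP3 libraries lay below all 5 APPPS1 libraries. The endothelial marker sum was 276 ± 48.7 CPM in APPPS1_12m and 122.5 ± 41.1 CPM in APPPS1_NLRP3_12m, without overlap, and its part in these differences was not tested. These groups also differ in sex: with sex as a further term the values were −0.55 (adjusted p = 0.499) and −0.67 (adjusted p = 0.16), neither called. The Vegfa call was kept only without replicate 37 among 9 leave-outs (adjusted p up to 0.15), and the Slc2a1 call was lost without replicate 35, 36, 44 or 49 (adjusted p up to 0.104).

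Age was compared as 12m minus 4m within each genotype. In NLRP3 and in APPPS1_NLRP3 all 4-month libraries were female and all 12-month libraries male. Age and sex cannot be told apart in those genotypes. In WT 0 of 10 members were called (0.0252% of all genes by edgeR) and in NLRP3 0 of 10 (0.418%), by edgeR and by DESeq2. DESeq2 called 19 and 292 of all genes. At an unadjusted p under 0.05 there were 0 and 2 members, and 1026 and 2850 of the 19865 genes. In APPPS1 7 of 10 rose (22.3% of all genes called, 13% higher): Hif1a by 1.86 ± 0.23, Egln3 by 4.11 ± 0.56, Egln1 by 0.58 ± 0.11, Bnip3 by 1.54 ± 0.18, Vegfa by 2.03 ± 0.37, Slc2a1 by 0.96 ± 0.22 and Ankrd37 by 1.22 ± 0.36. In APPPS1_NLRP3 6 of 10 rose (12.1% called, 7.25% higher): Hif1a by 1.52 ± 0.21, Egln3 by 3.89 ± 0.50, Egln1 by 0.51 ± 0.10, Bnip3 by 1.11 ± 0.17, Ankrd37 by 1.38 ± 0.34 and Adm by 1.24 ± 0.40. These comparisons share the APPPS1_12m and APPPS1_NLRP3_12m libraries with the transgene comparisons above. The largest adjusted p among them were 0.0111 for Ankrd37 in APPPS1 and 0.0303 for Adm in APPPS1_NLRP3. The first was lost without APPPS1_4m replicate 3 (adjusted p = 0.0642), and the second without replicate 11, 13, 14 or 46 (adjusted p up to 0.206).

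The direct test of whether the transgene difference grew with age (12m minus 4m) called 4 of 10 members higher with Nlrp3 (4.92% of all genes called, 3.71% higher) and 3 of 10 without (1.02% called, 0.876% higher), all of them among Hif1a, Egln3, Bnip3 and Vegfa described above. Without Nlrp3 the 4-month libraries of this test were all female and the 12-month ones all male. Egln1 grew by 0.50 ± 0.16 with Nlrp3 (adjusted p = 0.0532) and Slc2a1 by 0.93 ± 0.29 without (adjusted p = 0.116), neither called. Between 6 and 12 months 0 of 10 members were called by edgeR with Nlrp3 (0.705%) or without (0.0503%). At an unadjusted p under 0.05 there were 4 and 1 members, and 3147 and 1362 of the 19865 genes. DESeq2 called 3 and 1 members.

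Tagged libraries were compared with untagged ones of the same genotype at 12 months. In WT, NLRP3 and APPPS1_NLRP3 0 of 10 members were called, where 0.166%, 6.62% and 0.916% of all genes were. At an unadjusted p under 0.05 the counts in these genotypes were 2, 2 and 1 members, and 2053, 4031 and 2634 of the 19865 genes. DESeq2 called 1 (Slc2a1, lower in tagged WT), 0 and 0 members, where it called 315, 1709 and 706 of all genes. In APPPS1 3 of 10 fell (6.38% of all genes called, 3.68% lower): Epas1 by 1.38 ± 0.36 (adjusted p = 0.0181), Bnip3 by 0.96 ± 0.16 (adjusted p = 5.32e-04) and Vegfa, with a difference of −1.004 ± 0.32 (adjusted p = 0.0446). Without replicate 56, Bnip3 was lower by 0.77 (adjusted p = 0.00509) and Epas1 by 1.85 (adjusted p = 0.00527), but the Vegfa difference of −0.70 was not called (adjusted p = 0.209). Epas1 lost its call without replicate 59 (adjusted p = 0.0707), and Vegfa kept its call in 2 of 9 leave-outs. The endothelial marker sum was 276 ± 48.7 CPM in APPPS1_12m and 128 ± 33.5 CPM in APPPS1_12m_Mxo4. The 15 immediate-early and dissociation-response genes summed to 20410 ± 2787 CPM and 29450 ± 7323 CPM in the same groups, and the part of either list in these differences was not tested. That sum was also higher with the tag in the other genotypes. Mean sums without and with the tag were 22520 and 30620 CPM in WT, 16020 and 38650 CPM in NLRP3, and 12220 and 28320 CPM in APPPS1_NLRP3.

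The wider HIF pathway was followed through a list of 49 further genes, 11 regulators and 38 targets, of which 47 were tested (11 and 36). This list too was chosen with earlier results of these data known. At 4 months none was called. With Nlrp3 intact 5 were called higher and 1 lower at 6 months, where 2.06% and 0.967% of all genes were. At 12 months 17 and 1 were (11.1% and 6.96% of all genes), and with the tag 9 and 2 (3.44% and 1.64%), or 12 and 2 without replicate 56 (6.62% and 6.02%). Without Nlrp3 the counts were 11 and 1 (6.16% and 1.87%), 11 and 0 (5.53% and 3.17%), and 12 and 0 (3.5% and 1.64%). The median difference of the list at 12 months was 0.116 with Nlrp3, where that of all genes was −0.075, and 0.125 without, where that of all genes was −0.0489.

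The genes called higher most often were Ldha (lactate dehydrogenase A), Pgk1 (phosphoglycerate kinase), Lox (lysyl oxidase, which crosslinks collagen) and Slc16a3 (the lactate exporter MCT4), each in 6 of 8 transgene comparisons. At 12 months with Nlrp3, Ldha rose from 284 ± 17.4 CPM (n = 3) to 710 ± 165 CPM (n = 5), by 1.33 ± 0.15 (adjusted p = 2.84e-08), and Pgk1 by 1.57 ± 0.19 (adjusted p = 3.63e-08). Slc16a3 rose by 1.71 ± 0.23 (adjusted p = 1.9e-07). Lox rose from 1.92 ± 0.85 to 69.3 ± 18.7 CPM, by 5.15 ± 0.73 (adjusted p = 8.18e-07). Hk2 (hexokinase 2) was not called there, at 0.07 ± 0.11 (adjusted p = 0.684), nor was Pfkfb4 at 0.02 ± 0.13 (adjusted p = 0.96). Over the 8 transgene comparisons Hk2 was called in none, Pfkfb4 was called lower in 1 and the target P4ha2 was called lower in 2.

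Without Nlrp3 at 12 months Lox rose by 6.55 ± 0.79 (adjusted p = 1.26e-07), Ldha by 0.93 ± 0.14 (adjusted p = 8.62e-06) and Bhlhe40, a transcriptional repressor, by 2.08 ± 0.33 (adjusted p = 1.57e-05). The Lox level there was 0.454 ± 0.343 CPM in NLRP3_12m (n = 4), near the floor, and 55.4 ± 8.89 CPM in APPPS1_NLRP3_12m (n = 4). At 6 months Lox rose by 4.36 ± 0.60 with Nlrp3 (adjusted p = 4.15e-06) and 4.61 ± 0.64 without (adjusted p = 2.28e-06). Arnt2, a partner of HIF alpha subunits best known from neurons, was the only regulator called at 6 months with Nlrp3 (2.22 ± 0.51, adjusted p = 0.00791). In the tagged sets Bhlhe40 rose by 2.20 ± 0.35 with Nlrp3 (adjusted p = 5.03e-05, and 1.31e-09 at 2.56 ± 0.28 without replicate 56) and Pgk1 by 1.38 ± 0.20 without (adjusted p = 5.36e-06).

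Of the VHL ubiquitin ligase, Vhl and Cul2 were called in none of the 8 transgene comparisons. Its other subunits Elob, Eloc and Rbx1 rose at 12 months with Nlrp3, by 0.87 ± 0.20 (adjusted p = 0.00116), 0.57 ± 0.15 (adjusted p = 0.00586) and 0.52 ± 0.13 (adjusted p = 0.00307), and in no other of the 8. The hydroxylases Egln2 and Hif1an, and Arnt, Cited2 and Hif3a, were called in none. Ndrg1, a hypoxia-induced gene that oligodendrocytes also express, was the 1 gene called lower at 6 months in each background, at −1.26 ± 0.37 with Nlrp3 (adjusted p = 0.0471) and −1.22 ± 0.33 without (adjusted p = 0.0116). Ndrg1, P4ha2, Hk2, Pfkfb4 and these regulators were named after their values were seen.

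**Figure D5:**
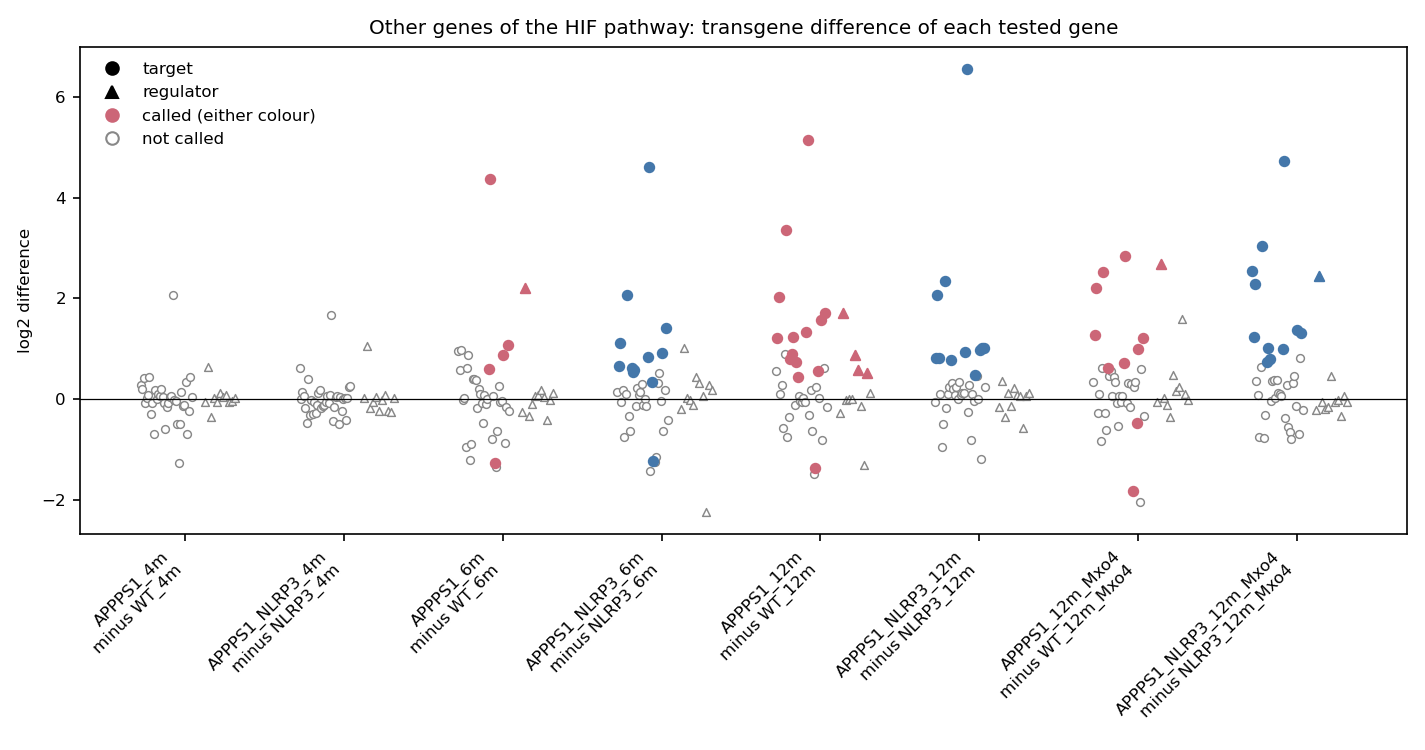
Transgene log2 difference (y axis) of each of the 47 tested genes of the wider HIF pathway (circles for targets, triangles for regulators) in the 8 transgene comparisons (x axis). Filled symbols passed the adjusted p threshold: none do so at 4 months, 18 do at 12 months with Nlrp3 intact, and Lox is the highest point at 6.55 at 12 months without Nlrp3. The NLRP3_12m mean of Lox was 0.454 CPM, near the floor.

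Over the 61 usable libraries, Pearson's r of log2(CPM + 0.1) described which members ran together. The libraries share their groups, depth and size factors, so r reflects the group structure and no p is given. Hif1a and Egln3 had r = 0.944, Hif1a and Bnip3 0.911, Egln3 and Bnip3 0.856, Hif1a and Vegfa 0.752 and Hif1a and Egln1 0.745. Epas1 ran with Slc2a1 (0.555) and against Egln1 (−0.500) and Hif1a (−0.494). P4ha1 had r = 0.133 with Hif1a.

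Among 14852 other protein-coding genes, those most like Hif1a were Ctsb (0.984), Glb1 (0.981) and Nceh1 (0.980). For Egln3 they were Psat1 (0.962), Cst7 (0.961) and Hexa (0.959), and for Bnip3 Ldha (0.947), Tpi1 (0.943) and Atp6v1c1 (0.938). Epas1 was most like Jcad (0.965), Itih5 (0.945) and Lims2 (0.943), and Slc2a1 most like Tsc22d1 (0.895), Atp10a (0.876) and Flt1 (0.864). Vegfa was most like Aldh2 (0.818), Rragd (0.806) and Pgk1 (0.804), and Egln1 most like Gm20721 (0.854), Gnas (0.851) and Cox6a1 (0.839). Likeness was lower for P4ha1, with St13 (0.749), Stip1 (0.737) and Washc4 (0.693), and for Ankrd37, with Grcc10 (0.664), Trappc6a (0.659) and Lrp2bp (0.654), a gene that overlaps it. It was lowest for Adm, with Hist1h2bj (0.571), Brip1 (0.566) and Lif (0.566).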

How the data were processed

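The deposited values were whole-number read counts per gene identifier, made by the authors with Trimmomatic, TopHat and HTSeq on mm10, per the submitters' processing notes, with no versions given. Per the labels' protocols, RNA was extracted with a miRNA easy kit, SMART-Seq v4 libraries were built from 10 ng of RNA, and 125 bp paired reads came from an Illumina HiSeq. The kit adds no molecular identifiers, so PCR copies were counted as reads. Symbols and positions came from GENCODE vM21 (GRCm38, equal to mm10, 1-based), and promoters from RefSeq.

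Counts were tested with edgeR 4.0.16 (R 4.3.3, limma 3.58.1): filterByExpr (minimum count 10, total 15), TMM, 1 fit over 62 libraries with a term per group and for the second title number, a robust quasi-likelihood F test without tagwise dispersion, two-sided, adjusted over 19865 genes. Standard errors were taken as the absolute log2 difference over the root of F. Levels are CPM with TMM factors over the 61 libraries of at least 100000 counts. Replicate numbers are the third title number. The DESeq2 1.42.0 and sex-term fits left out APPPS1_6m replicate 21. Leave-one-out fits were given the dispersion trend of all libraries as a fixed value, unlike the main fit. The procedure was tested on simulated counts.

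The 10 members, the 49 further pathway genes and the marker lists were chosen with earlier results of these data known. The sum over the microglial markers is not reported here. From the 49, up to 4 called genes with the smallest adjusted p per transgene comparison were to be named, and for each member the 3 genes with the highest correlation. Alternatives were DESeq2, no filter, no term for the second number, the first title number or sex as a further term, each value of the second number alone, plain CPM, and each library left out. Leaving out 4 libraries together (replicates 21, 41, 45 and 56) was added after the data were seen. Replicate pairs of a group, 90 in all, differed beyond counting noise (chi-square per degree of freedom at least 7).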

Additional observations from a re-analysis of the deposited data

Results flagged for a closer look

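In groups of 4 or more libraries, 100 gene and group combinations were tested for a single library far from the rest (its gap to the nearest library against the whole range, by Dixon's 95% critical value), and 6 passed, where chance flags about 1 in 20. Epas1 was high in NLRP3_4m replicate 15 (34.91 CPM) and in APPPS1_12m_Mxo4 replicate 56 (11.32 CPM). Egln1 was low in replicate 56 (43.28 CPM) and in APPPS1_NLRP3_12m replicate 43 (49.1 CPM). Egln3 was high in NLRP3_6m replicate 26 (1.922 CPM), and Ankrd37 was high in the shallow NLRP3_12m replicate 45 (16.7 CPM).

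The transgene difference grew from 4 to 12 months in 7 tested cases. With Nlrp3 intact the gain in log2 was 1.748 for Hif1a, 3.276 for Egln3, 1.314 for Bnip3 and 1.83 for Vegfa, and without Nlrp3 it was 1.659 for Hif1a, 3.313 for Egln3 and 1.041 for Bnip3.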

How the results depend on the processing

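Of 53 calls of single members, DESeq2 kept 53, no term for the second title number 50, sex as a further term 48, no filter on low counts 45, an added term for the first title number 41, and leaving out 4 libraries together (chosen after seeing the data) 52. Among the libraries with second number 1 alone 27 of 47 calls held, and with number 2 alone 33 of 53. With number 2 alone, where replicate 56 is the only tagged APPPS1 library, the tagged APPPS1 minus WT differences reversed for Hif1a (−0.21), Egln3 (−0.49) and Bnip3 (−0.15). Single left-out libraries kept 402 of 472 calls. These fits used a fixed dispersion trend, unlike the main fit. For 12m minus 4m in APPPS1_NLRP3 they called 1715 to 2059 genes, against 2402 in the main fit. The changed fit and the removed library cannot be told apart in a lost call. The cause of a lost call was not tested.

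Numbers of members called changed as follows. With DESeq2 they were 5 for APPPS1 minus WT at 6 months, 1 for the tag in WT, and 3 and 1 for the 12-minus-6-month change of the transgene difference with and without Nlrp3. Leaving out 4 libraries gave 1 at 4 months and 5 at 6 months for APPPS1 minus WT, 7 in the tagged sets, and 2 for the 12-minus-6-month change with Nlrp3. With the first title number they were 1 for Nlrp3 loss with the transgenes at 12 months, 1 for the tag in APPPS1, and 2 and 1 for the 12-minus-4-month change with and without Nlrp3. Nlrp3 loss with the transgenes at 12 months gave 0 with no filter and 0 with sex as a term. With number 1 alone the counts were 1 and 3 for the transgene difference at 6 months with and without Nlrp3, 0 and 0 for Nlrp3 loss at 12 months without and with the transgenes, 0 for the tag in APPPS1, and 1 and 1 for the 12-minus-4-month change. With number 2 alone they were 0 for Nlrp3 loss without the transgenes at 12 months, 0 for tagged APPPS1 minus WT, 3 for the tagged interaction, 4 for Nlrp3 loss with the transgenes in the tagged sets, 5 for the tag in APPPS1, 1 for the 12-minus-4-month change without Nlrp3 and 2 for the 12-minus-6-month change with it. Leaving out single libraries gave 0 to 3 for Nlrp3 loss with the transgenes at 12 months, 3 to 7 for tagged APPPS1 minus WT, 1 to 4 for the tag in APPPS1, 2 to 5 and 1 to 3 for the 12-minus-4-month change, and 0 to 3 and 0 to 1 for the 12-minus-6-month change, with and without Nlrp3.

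The number of all genes called, which sets the background, moved far more. Over the alternatives other than leave-outs it ran from 1 to 19 and 0 to 8 at 4 months, 98 to 1175 and 677 to 2294 at 6 months, 674 to 4796 and 399 to 2090 at 12 months, and 0 to 2948 and 818 to 1592 in the tagged sets, for the transgene difference with and without Nlrp3. Single left-out libraries gave 239 to 605 and 1008 to 2003 at 6 months, 2610 to 4589 and 1168 to 1859 at 12 months, and 420 to 2510 and 581 to 856 in the tagged sets. Plain CPM moved 15 of 160 group means by more than 1 SD. No paired analysis was possible because the replicate number (the third title number) is not shared between groups. The first and second title numbers are shared, and fits with and without them as terms are given above. Adm, Egln3 in libraries without the transgenes, Lox in NLRP3_12m, and Adm, Egln3, Epas1, Vegfa and Ankrd37 in replicate 45 (1 to 23 counts) rest on few counts, which limits their precision.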
